A study of Mus musculus with 5 samples.

Results

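The HIF target genes studied, which the hypoxia-inducible factors (HIF) are known to turn on when oxygen is low, were measured in erythroid cells of mouse bone marrow. The genes were Vegfa, Egln1, Egln3, Pfkfb3, Pfkfb4, Slc2a1, Ankrd37, Ndrg1, P4ha1 and Kdm3a, a list of 10 chosen by name. Each was read from the probe set paired with its symbol alone, the brightest on average over all arrays where there was more than 1, and 9 of the 10 had such a probe set, among 22180 genes measured. Ankrd37 shared its probe set with another gene and was not analysed here.

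There were 5 arrays, 3 from mice homozygous for the mutant mitochondrial DNA polymerase allele (Polgtm1Lrsn mt/mt, Polg mutant) and 2 from their wild-type counterparts (Polgtm1Lrsn wt/wt, WT). Polg mutant mice accumulate mutations in mitochondrial DNA because the polymerase cannot proofread. All mice were on a C57BL/6 background and came from parents that were both Atg7 flox/flox and PolG wt/mt, with an Epo-cre ki/wt father and an Epo-cre wt/wt mother, so each mouse carried floxed Atg7, and which of them carried the Cre allele was not given. According to the design text all mice were phlebotomized, although the labels' treatment field reads none, and neither their ages nor the bleeding schedule is stated in these sources. No unbled mice were among the samples, so the values compare genotypes and not bled with unbled mice. Cells bearing CD45, a leukocyte antigen, had been depleted and cells bearing the erythroid antigen Ter119 selected. Whether each array came from a separate animal was not stated, so the p-values rest on a spread between samples that may be technical.

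HIF is a pair of proteins, an oxygen-sensitive alpha subunit (HIF1A or EPAS1) and its stable partner ARNT. In oxygenated cells the EGLN prolyl hydroxylases use oxygen to mark the alpha subunit, VHL binds the marked protein and it is destroyed. When oxygen is scarce the subunit survives and the pair turns on genes of vessel growth, glucose uptake, glycolysis and its own feedback. After blood loss the same system acts in the kidney, where it drives erythropoietin, the hormone of red cell production.

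HIF binds DNA at a short core that reads ACGTG or GCGTG, so the 250 bases before the transcription start were searched for both cores on both strands (RefSeq promoters, GRCm38.p6, the farthest upstream start of each gene). Of the 9 measured genes, 8 had an entry, and 7 of these 8 held at least 1 core, against 38.6% of 27025 genes' windows of the same length. ACGTG was in 5 of the 8, against 16.5% of all windows, and GCGTG in 5 of the 8, against 28.3%. No matches overlapped within a window. The genes were chosen as known HIF targets, and the windows of all genes were not matched to theirs for base content. No enrichment is therefore read from these shares. Ndrg1 had no entry. Windows of 4 genes are shown with the cores in capitals, to set Vegfa, which had none in this window, beside genes with 1, 2 and 3. A match is a run of letters and not a measured binding site, and the missing core in Vegfa concerns only these 250 bases.
Vegfa, chr17:46032378-46032627, minus strand: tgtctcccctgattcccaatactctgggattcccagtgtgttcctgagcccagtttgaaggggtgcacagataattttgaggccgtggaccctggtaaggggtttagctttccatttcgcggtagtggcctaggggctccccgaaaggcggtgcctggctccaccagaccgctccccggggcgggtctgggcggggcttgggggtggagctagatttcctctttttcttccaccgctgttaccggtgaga
Egln3, chr12:54203875-54204124, minus strand: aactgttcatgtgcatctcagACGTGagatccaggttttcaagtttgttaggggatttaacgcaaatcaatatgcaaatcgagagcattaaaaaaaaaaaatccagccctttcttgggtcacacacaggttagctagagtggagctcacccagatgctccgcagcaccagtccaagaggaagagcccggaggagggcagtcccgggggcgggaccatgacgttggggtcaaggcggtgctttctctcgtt
Slc2a1, chr4:119108495-119108744, plus strand: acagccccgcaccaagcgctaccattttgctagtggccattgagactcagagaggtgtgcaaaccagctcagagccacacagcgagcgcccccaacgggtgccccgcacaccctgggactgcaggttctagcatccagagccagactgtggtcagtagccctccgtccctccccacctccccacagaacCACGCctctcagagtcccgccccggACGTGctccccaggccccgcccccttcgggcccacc
P4ha1, chr10:59323046-59323295, plus strand: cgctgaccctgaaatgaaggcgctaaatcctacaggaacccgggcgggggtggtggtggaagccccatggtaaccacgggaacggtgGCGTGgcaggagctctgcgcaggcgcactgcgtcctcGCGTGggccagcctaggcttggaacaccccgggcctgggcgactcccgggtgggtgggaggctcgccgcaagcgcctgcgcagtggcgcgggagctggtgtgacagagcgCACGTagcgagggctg
In Egln3 the core began 229 bases before the start. In Slc2a1 the cores began 61 and 36 bases before it, and in P4ha1 163, 126 and 16 bases before it. The other genes with a core were Egln1, with 1 of each kind, Pfkfb3 with ACGTG 60 bases before the start, Pfkfb4 with GCGTG 117 bases before it and Kdm3a with GCGTG 27 bases before it.

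None of the measured HIF target genes passed the test between Polg mutant and WT erythroid cells, and the estimated differences were small. On the log2 scale of the deposited values the differences ran from -0.013 for Egln3 to 0.37 for Slc2a1, with a median of 0.097 over the 9 genes and of 0 over all genes measured. The estimates of 8 of the 9 genes were above 0, those of Kdm3a, Pfkfb4 and Egln1 by less than 0.08. Of all 22180 genes, 10330 were above 0 and 10715 below. With limma, which fits a linear model to every gene and moderates its variance, 0 of the 9 genes were higher and 0 lower at an adjusted p under 0.05. The background was also 0.00% in each direction, since 0 of the 22180 genes passed either way. At an unadjusted p under 0.05, 1 of the 9 genes, Ndrg1, was higher, against 4.18% of all genes, and 0 were lower, against 5.33%. In 2 of the 9 genes, Vegfa and Ndrg1, all 3 Polg mutant arrays were above both WT arrays, against 8.36% of all genes, and in 0 all 3 were below both, against 9.73%. Among the 8340 brighter genes, those with 2 or more arrays over a log2 of 6, which include 7 of the 9 with Vegfa and Ndrg1, 9.47% were higher at an unadjusted p under 0.05 and 16.7% had every Polg mutant array above both WT arrays. The count of 2 was 5 without WT replicate 1, against 22.2% of all genes in the same fit, 4 without WT replicate 2, against 23.0%, and 4 without Polg mutant replicate 3, against 12.4%. The median of 0.097 was 0.19 without Polg mutant replicate 3. An exact permutation test of a single gene could not go below p = 0.1 with 10 splits of the arrays.

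**Figure D1:**
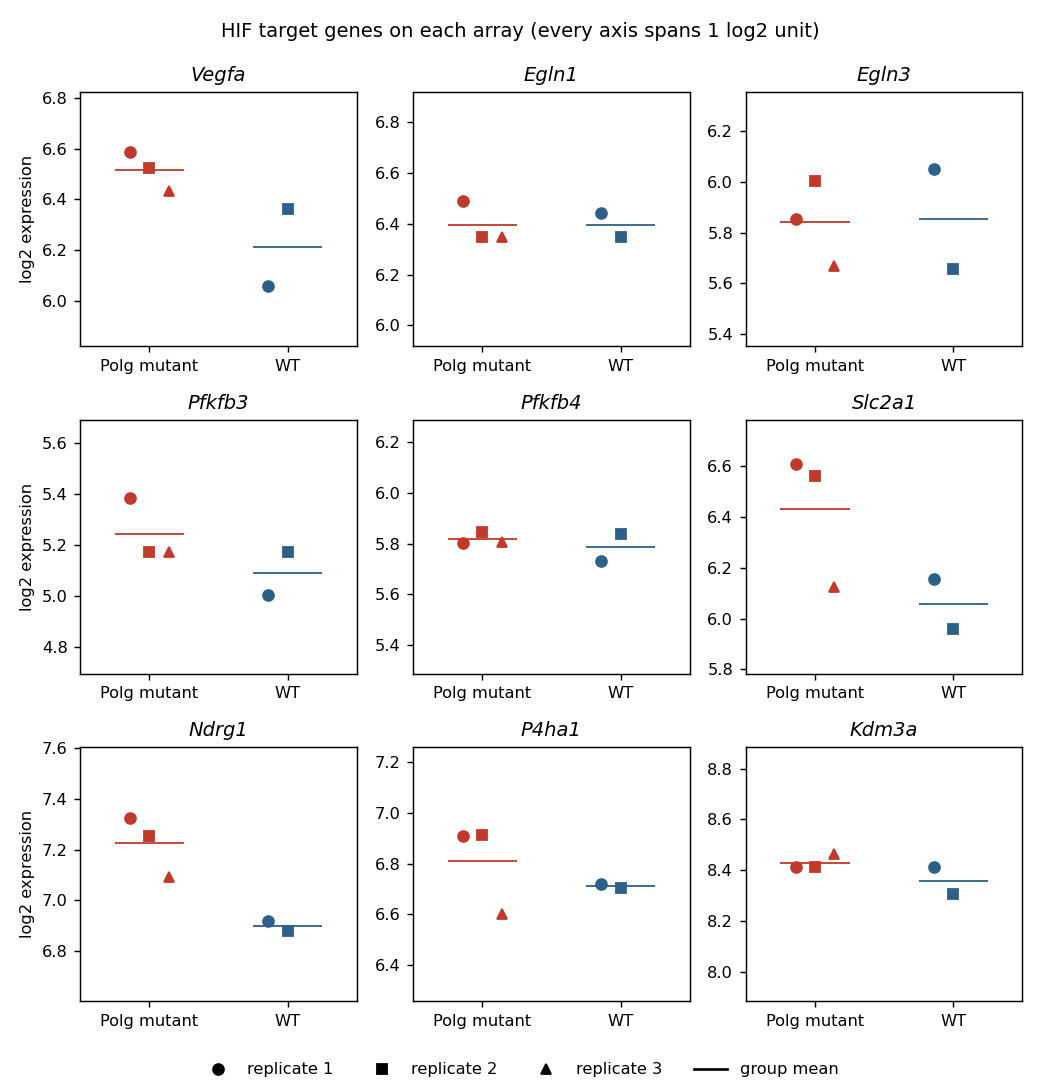
Log2 expression of each HIF target gene on every array, with the 3 Polg mutant arrays left and the 2 WT arrays right of each panel, a marker shape for each replicate number, and a line at each group's mean. Every panel spans 1 log2 unit; the groups are apart for Vegfa and Ndrg1 and overlap for the other 7 genes.

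Vegfa encodes the growth factor that draws new vessels towards tissue short of oxygen. It read 6.59, 6.52 and 6.43 in Polg mutant replicates 1, 2 and 3, against 6.06 and 6.36 in WT replicates 1 and 2. The groups did not overlap, although WT replicate 2 lay only just below Polg mutant replicate 3. The difference was 0.30 ± 0.11 (SE), a 1.23-fold level, with a 95% interval from -0.023 to 0.63 and a limma adjusted p of 0.581 (exact permutation p = 0.1, two-sided). It was 0.15 without WT replicate 1 and 0.46 without WT replicate 2, so its size rested on which WT array was kept. Of the 10 genes of the VEGF family and its receptors, Vegfa was the 1 whose groups were apart, against 18.1% of all genes, and 0 had an unadjusted p under 0.05 with limma, against 9.51%. The ligand genes Vegfb and Vegfc differed by -0.0075 and -0.0032, and Vegfd and Pgf by -0.15 and -0.11. The receptor genes Flt1, Kdr and Flt4 differed by 0.076, 0.050 and -0.033, and the co-receptor genes Nrp1 and Nrp2 by 0.090 and -0.15. All 5 receptor and co-receptor genes and Pgf read below a log2 of 6 on every array, and signal over background was not known for them.

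Egln1 and Egln3 encode oxygen-sensing prolyl hydroxylases that HIF itself induces, a feedback that limits the response. Egln1 read 6.49, 6.35 and 6.35 in the Polg mutant arrays, against 6.44 and 6.35 in the WT arrays. Replicate 1 of each genotype was the higher one and the remaining 3 arrays carried 1 shared value. The difference was 0.00039 ± 0.065 (SE), with a 95% interval from -0.18 to 0.18 and a limma adjusted p of 1. Egln3 read 5.85, 6.00 and 5.67 in the Polg mutant arrays, against 6.05 and 5.66 in the WT arrays. The WT arrays held both the highest and the lowest value, and the difference was -0.013 ± 0.17 (SE), with a 95% interval from -0.51 to 0.48 and a limma adjusted p of 1. Its direction turned with the arrays used, at 0.18 without WT replicate 1, 0.074 without Polg mutant replicate 3 and -0.21 without WT replicate 2. The third hydroxylase gene, Egln2, not usually counted among HIF-induced genes, read 7.18 on 4 arrays and 7.12 on WT replicate 1, with a difference of 0.028 ± 0.024 (SE, limma adjusted p = 0.677).

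Pfkfb3 and Pfkfb4 encode enzymes that set the level of an activator of phosphofructokinase, and so the pace of glycolysis. Pfkfb3 read 5.38, 5.17 and 5.17 in the Polg mutant arrays, against 5.004 and 5.17 in the WT arrays. A shared value was carried by 3 arrays, 1 of them WT, with Polg mutant replicate 1 above them and WT replicate 1 below. The difference was 0.15 ± 0.10 (SE, limma adjusted p = 0.638), with a 95% interval from -0.13 to 0.44. It was 0.070 without WT replicate 1, 0.085 without Polg mutant replicate 1 and 0.24 without WT replicate 2. Pfkfb4 read 5.80, 5.85 and 5.81 in the Polg mutant arrays, against 5.73 and 5.84 in the WT arrays. All but WT replicate 1 were close together, and the difference was 0.034 ± 0.042 (SE, limma adjusted p = 0.755), with a 95% interval from -0.087 to 0.15, or -0.020 without WT replicate 1. Both genes read below a log2 of 6 on every array and were the 2 of the 9 that did not pass the filter on dim genes (above 6 on at least 2 arrays), so for neither was the signal over background known.

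Some relatives of these enzymes had larger estimates. Pfkfb2, the isoform best known from heart, averaged 8.35 ± 0.06 in the Polg mutant and 8.01 ± 0.16 in WT (SD, n = 3 and 2), a difference of 0.34 ± 0.09 (SE) with an unadjusted p under 0.05 and a limma adjusted p of 0.371. Among the phosphofructokinase genes, Pfkp, the platelet type, averaged 7.53 ± 0.41 in the Polg mutant and 6.33 ± 0.17 in WT, a difference of 1.20 ± 0.29 (SE) with an unadjusted p under 0.05 and a limma adjusted p of 0.339. Pfkl, the liver type, and Pfkm, the muscle type, differed by -0.17 and -0.071 (limma adjusted p = 0.638 each). Of the 6 genes of this group 0 passed the threshold over all genes, and Pfkfb1 was not analysed here.

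Slc2a1 encodes GLUT1, the glucose transporter of many cell types. It read 6.61, 6.56 and 6.13 in the Polg mutant arrays, against 6.15 and 5.96 in the WT arrays. Polg mutant replicates 1 and 2 were high, while replicate 3 lay just below WT replicate 1, so the groups overlapped. The difference was 0.37 ± 0.19 (SE, limma adjusted p = 0.638), the largest estimate of the 9 genes and the one with the widest interval, from -0.17 to 0.92. It was 0.53 without Polg mutant replicate 3. A second probe set for Slc2a1 was dim, at 4.51 on average in the Polg mutant and 4.49 in WT, and with the mean of both probe sets the difference was 0.20. Slc2a3, the neuronal-type transporter gene, was the 1 transporter gene with a positive difference and an unadjusted p under 0.05, at 0.34 ± 0.11 (SE, limma adjusted p = 0.507). Slc2a4, the insulin-responsive transporter gene, lay in the other direction. It read 8.80, 9.19 and 9.12 in the Polg mutant arrays, against 10.18 and 9.93 in the WT arrays, a difference of -1.02 ± 0.16 (SE) and a 0.493-fold level, with an unadjusted p under 0.05 and a limma adjusted p of 0.248. The other 7 of the 10 measured SLC2A genes in the list had differences between -0.13 and 0.21: Slc2a10 and Slc2a12 stood at these ends, and Slc2a2, Slc2a6, Slc2a8, Slc2a9 and Slc2a13 lay between. Slc2a2, Slc2a9, Slc2a12 and Slc2a13 read below a log2 of 6 on every array.

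Ndrg1, a gene induced by hypoxia and other stresses, had the smallest p of the 9. It read 7.33, 7.26 and 7.09 in the Polg mutant arrays, against 6.92 and 6.88 in the WT arrays. The Polg mutant arrays all lay above both WT arrays, which were close together. The difference was 0.33 ± 0.08 (SE), a 1.25-fold level with a 95% interval from 0.090 to 0.56, and a limma adjusted p of 0.366 (exact permutation p = 0.2, two-sided). The second Ndrg1 probe set was dim, at 3.96 on average in the Polg mutant and 3.90 in WT, and with the mean of both probe sets the difference was 0.19. Ndrg3 stood at 0.49 ± 0.18 (SE, limma adjusted p = 0.573) with its groups apart, and Ndrg2 and Ndrg4 at -0.23 and 0.11 with overlapping groups.

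P4ha1 encodes the catalytic subunit of the enzyme that hydroxylates collagen, which HIF induces in cells that lay down matrix. It read 6.91, 6.91 and 6.60 in the Polg mutant arrays, against 6.72 and 6.70 in the WT arrays. Polg mutant replicates 1 and 2 lay above the WT arrays and replicate 3 below them, which gave a difference of 0.097 ± 0.12 (SE, limma adjusted p = 0.754) with a 95% interval from -0.25 to 0.44. Without Polg mutant replicate 3 the difference was 0.20 (limma adjusted p = 0.297). The other subunit genes P4ha2, P4ha3 and P4hb differed by 0.00042, 0.0021 and 0.21, and of the 4 genes 0 had an unadjusted p under 0.05 with limma, against 9.51% of all genes.

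Kdm3a encodes a histone demethylase that removes methyl groups from a lysine of histone H3. It read 8.41, 8.41 and 8.46 in the Polg mutant arrays, against 8.41 and 8.30 in the WT arrays. There were 3 arrays with 1 shared value, and the difference was 0.071 ± 0.044 (SE, limma adjusted p = 0.638), with a 95% interval from -0.054 to 0.20, or 0.017 without WT replicate 2 and 0.13 without WT replicate 1. Its relative Kdm3b averaged 8.70 ± 0.24 in the Polg mutant and 9.17 ± 0.20 in WT (SD, n = 3 and 2), with groups apart and a difference of -0.47 ± 0.19 (SE, limma adjusted p = 0.638). Jmjd1c, the third gene of the family, differed by 0.032.

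**Figure D2:**
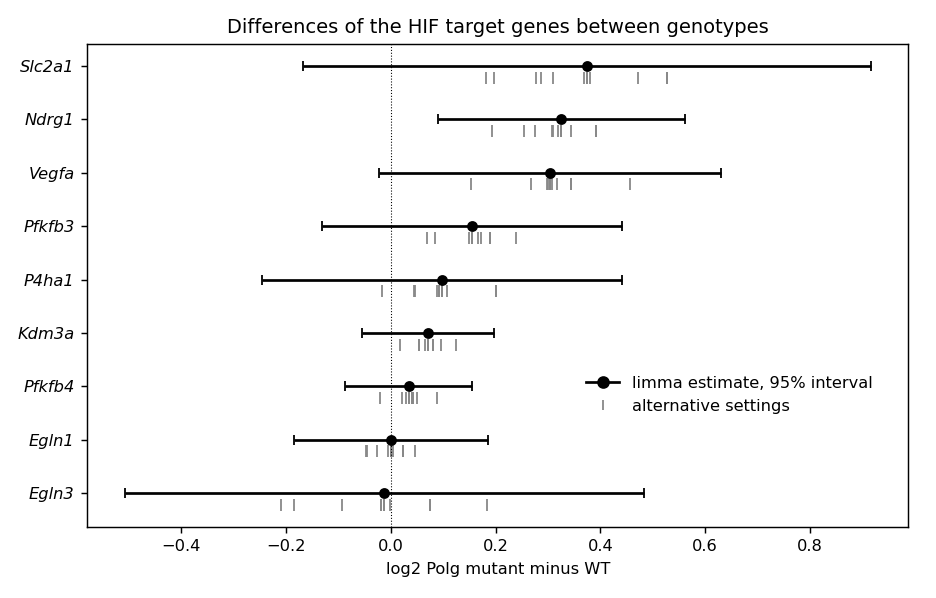
Log2 difference, Polg mutant minus WT, of each HIF target gene with its 95% interval from limma (points and bars), above the values of the same gene under the 14 alternative settings (grey ticks). The interval excludes 0 for Ndrg1, from 0.090 to 0.56 before adjustment over all genes, and includes 0 for the other 8.

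**Figure D3:**
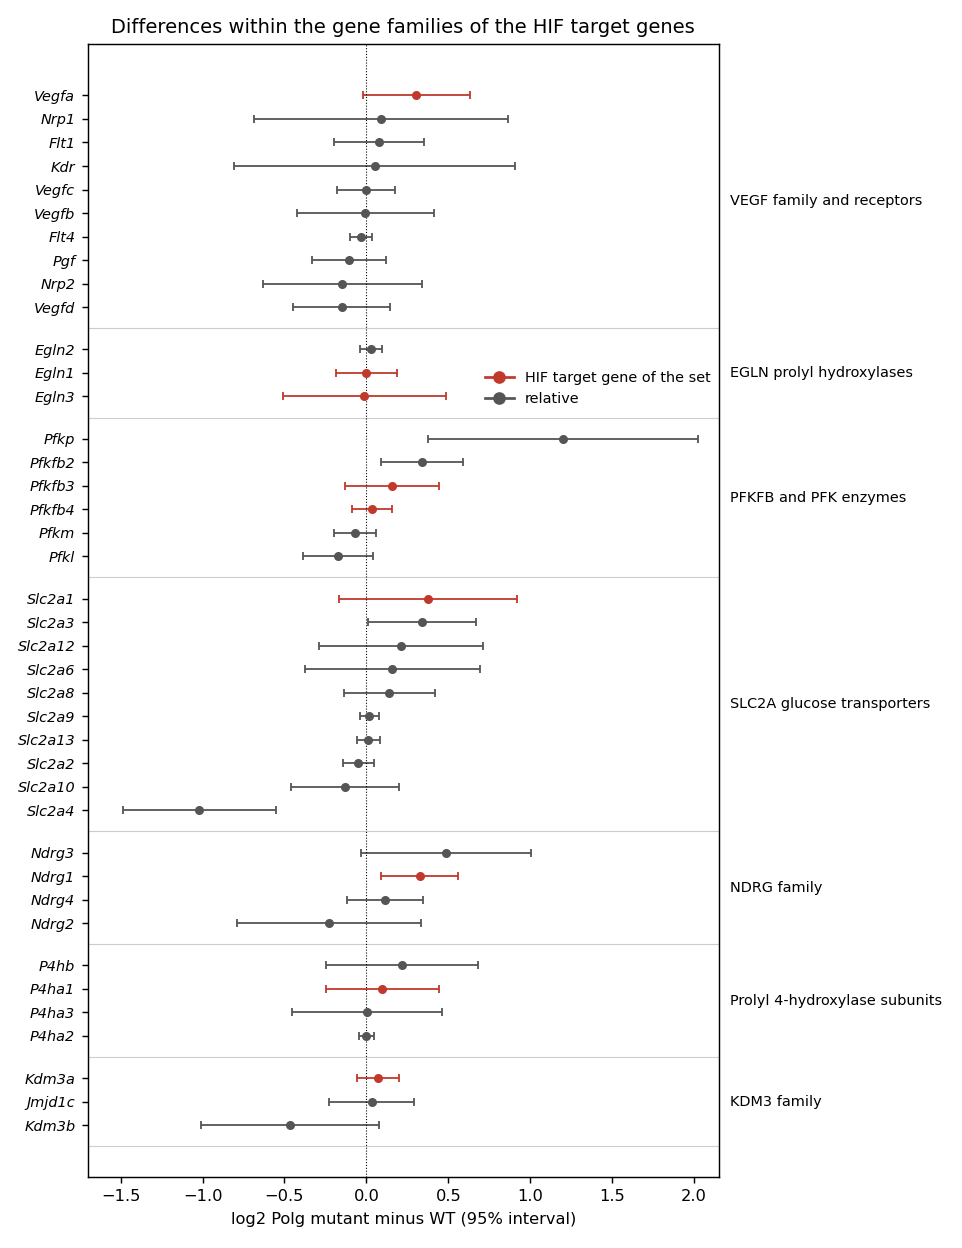
Log2 difference, Polg mutant minus WT, with 95% limma intervals for the HIF target genes (red) and their relatives (grey), grouped by gene family. Pfkp at 1.20 and Slc2a4 at -1.02 lie farther from 0 than any of the 9 HIF target genes.

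The labelled cell type was checked with 15 measured erythroid markers. Their mean level was 11.7, 11.8 and 11.7 in Polg mutant replicates 1, 2 and 3, against 12.1 and 11.9 in the WT arrays, and all 15 read above a log2 of 9 on every array, with Slc4a1, Ermap and Rhag the brightest. All 15 had negative differences and in 13 of the 15 the Polg mutant arrays lay below both WT arrays, against 9.73% of all genes. Among the 8340 brighter genes, which include all 15, the share was 20.3%. The mean of 18 neutrophil markers was 8.13, 8.63 and 7.03 in Polg mutant replicates 1, 2 and 3, against 7.67 and 6.85 in WT replicates 1 and 2, with Elane, Mpo and Ctsg the brightest. Polg mutant replicates 1 and 2 were thus the highest arrays for the neutrophil list, as they were for Slc2a1, P4ha1, Ndrg1 and Vegfa. Of the other HIF target genes, Egln3 was highest in WT replicate 1 and Kdm3a in Polg mutant replicate 3. Egln1 and Pfkfb3 were highest in Polg mutant replicate 1 and Pfkfb4 in replicate 2, each with a WT array second or tied for second. In Vegfa and Ndrg1, Polg mutant replicate 3 also lay above both WT arrays, whereas its neutrophil mean was below that of WT replicate 1. Likeness across arrays was not tested. With the neutrophil mean as a term in the model, the difference was 0.18 for Slc2a1 and -0.016 for P4ha1, against 0.37 and 0.097 without the term. For Ndrg1 it was 0.26 with the term, against 0.33 without it, and for Vegfa 0.32 against 0.30. Egln3 stood at -0.19 with the term, against -0.013 without it, and Egln1 at -0.026 against 0.00039, while Pfkfb3, Pfkfb4 and Kdm3a stood at 0.17, 0.042 and 0.072 with it. The cause of these shifts was not tested. The macrophage list (12 genes, with Cd68, Csf1r and Vcam1 brightest) had means of 5.33, 5.33 and 5.15 in Polg mutant replicates 1, 2 and 3. The WT arrays had 5.20 and 5.23, so Polg mutant replicates 1 and 2 had the highest means. Of these 12 genes, only 2 passed the filter on dim genes and 10 had tied values. Signal over background was not known for the dim ones, so this order is not read as a match to the neutrophil list. The lymphocyte list (10 genes, Nkg7, Ptprc and Igll1 brightest) had means from 5.15 to 5.72, against 5.83 and 5.37 in the WT arrays, and the endothelial and stromal list (10 genes, Col1a1, Cdh5 and Pecam1 brightest) from 5.34 to 5.62, against 5.21 and 5.74 in the WT arrays. The megakaryocyte list (7 genes, Gp9, Itga2b and Vwf brightest) had means from 6.38 to 6.64 in the Polg mutant arrays, against 6.54 and 7.26 in the WT arrays. In a mixed cell sample, fewer cells of a type and less RNA per cell cannot be told apart.

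Genes that make or control HIF were measured next. Of 24 genes of HIF subunits and regulators, 21 were measured, and their median difference was 0, as it was over all genes. With limma 0 of them passed in either direction over all genes, while 3 were higher and 1 lower at an unadjusted p under 0.05, or 19.0% of the list against 9.51% of all genes. Of the 21, 16 were among the 8340 brighter genes. In the higher direction alone, unlike the 19.0%, 9.47% of those 8340 passed at that p, against 4.18% of all genes. The share over all genes is thus a low reference here, and no excess can be read from it. The alpha subunit gene Hif1a read 6.46, 6.34 and 5.89 in the Polg mutant arrays, against 6.18 and 5.78 in the WT arrays. The groups overlapped, and the difference was 0.24 ± 0.24 (SE, limma adjusted p = 0.723). Epas1, the alpha subunit that governs erythropoietin in the kidney, stood at -0.21 ± 0.33 (SE), from levels below a log2 of 6 on every array. Arnt, the shared partner, read 9.54, 9.41 and 9.54 in the Polg mutant arrays, against 9.82 and 9.68 in the WT arrays. Its groups were apart, with a difference of -0.26 ± 0.07 (SE), an unadjusted p under 0.05 and a limma adjusted p of 0.393. Vhl differed by 0.17, and Hif1an, the asparagine hydroxylase that blocks HIF activity, by 0.038 (limma adjusted p = 0.674 and 0.932). Vhl carried a shared value of 5.97 on all Polg mutant arrays, against 6.01 and 5.60 in the WT arrays. Only WT replicate 1 was thus above a log2 of 6.

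The 4 regulators of smallest p with positive differences were Ubqln1, a ubiquilin gene, at 0.23, Siah2, a ubiquitin ligase gene that targets EGLN enzymes, at 0.29, Usp33, a deubiquitinase gene, at 0.19, and Elob, a subunit of the VHL complex, at 0.56. Chosen for their small p, they had limma adjusted p from 0.236 to 0.608. With negative differences they were Arnt, the clock gene Arntl, which is related to Arnt, at -0.13, Cul2, the scaffold of the VHL complex, at -0.15, and Siah1a at -0.66.

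Beyond the 9 genes, 68 of 76 other known HIF targets were measured. Their median difference was 0.00021, against 0 over all genes, with 34 above 0 and 30 below. Of all 22180 genes, 10330 were above 0 and 10715 below. With limma 0 passed in either direction over all genes. At an unadjusted p under 0.05, 9 of the 68 were higher and 6 lower, 22.1% of the list against 9.51% of all genes. The groups were apart in 13 genes as higher and 10 as lower, 33.8% against 18.1%. Tied values occurred in 32 of the 68, against 67.9% of all genes, and 35 were among the 8340 brighter genes. Of those 8340, 16.7% had their groups apart as higher and 20.3% as lower. The shares over all genes are thus a low reference for this list, and no excess can be read from them. Of 9 widely used targets named here as a set, the groups were apart in 2, Ddit4 and Ldha, 22.2% of the set against 18.1% of all genes. The other 7 had differences of -0.040 for Bnip3, a mitophagy receptor gene, -0.094 for Pdk1, which holds back pyruvate oxidation, 0.18 for the glycolytic gene Pgk1, 0.058 for the hexokinase gene Hk2, -0.039 for the carbonic anhydrase gene Car9, -0.025 for the peptide hormone gene Adm and -0.096 for Mxi1, a repressor of MYC targets. Ldha, which makes lactate, differed by 0.17 ± 0.11 (SE, limma adjusted p = 0.638) with its groups only just apart. It read 6.10, 5.81 and 5.81 in the Polg mutant arrays, against 5.77 and 5.72 in the WT arrays. Only 1 array was thus above a log2 of 6. Bnip3, Car9 and Adm read below a log2 of 6 on every array and had no known signal over background.

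Among the other targets, Ddit4, which restrains the growth kinase mTOR and also answers to other stresses, had the smallest p. It read 7.60, 7.11 and 7.60 in the Polg mutant arrays, against 5.80 and 5.11 in the WT arrays. The groups were far apart, with a difference of 1.98 ± 0.30 (SE) and a limma adjusted p of 0.238. Both WT values were below a log2 of 6, where signal over background was not known, so the 3.94-fold level may understate the difference. Next came Ero1a, an oxidase gene of protein folding, at 0.39, Lonp1, a mitochondrial protease gene, at 0.73, and Pfkp at 1.20. In the other direction were Sap30, a corepressor subunit gene, at -0.38, the chemokine receptor gene Cxcr4 at -0.24, Ppp1r3c, a glycogen-targeting phosphatase subunit gene, at -0.56 from levels below a log2 of 6, and Rsbn1 at -0.20. The limma adjusted p of these 8 genes, chosen for their small p, ran from 0.238 to 0.463.

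**Figure D4:**
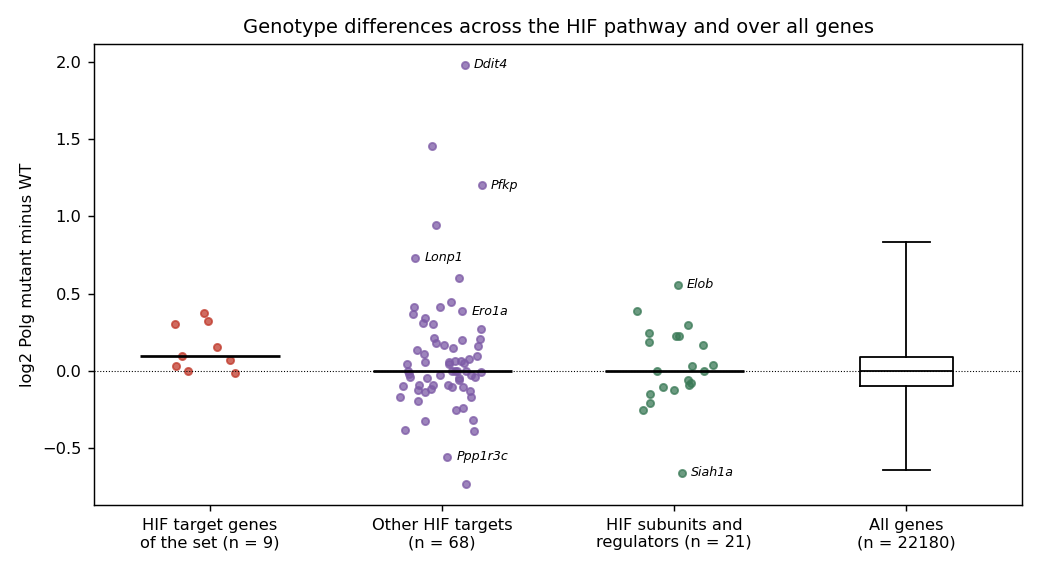
Log2 difference, Polg mutant minus WT, of each gene in 3 lists (points, with a line at the list's median) beside a box plot of all 22180 genes (box from lower to upper quartile, whiskers at the outer 1% of genes on each side). The 9 HIF target genes lie between -0.013 and 0.37, inside the whiskers, and 7 genes of the other lists are labelled.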

How the data were processed

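Per the labels' protocols, 100 ng of total RNA per sample was copied with a whole-transcript kit and hybridised, biotin-labelled, to Affymetrix arrays. The authors deposited log2 values for 41345 probe sets, 1 column per array. The tools RMA and Partek 6.5 appear in the submitters' processing notes, where their roles are not stated. A range from 1.43 to 14.1, with array medians from 5.10 to 5.13, set the scale as log2. The deposited values were used unaltered. Probe annotation, genome build and background signals are not stated in these sources, and the number of arrays limits the precision.

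Genes came from the platform's annotation of probe sets (23521 with 1 symbol, 1814 with several, 16010 with none). Of the genes tested, 67.9% carried the same value on at least 2 arrays, and limma's prior SD was 0.0376 (0.730 prior degrees of freedom). The limma package (3.58.1, in R 4.3.3) compared the genotypes, with genotype as the single term, empirical Bayes without a trend, two-sided tests and Benjamini-Hochberg adjustment over 22180 genes. SE and 95% intervals are those of the moderated fit, and intervals are unadjusted. The fit was also run on simulated data with planted changes larger than the estimates of the HIF target genes. That run does not show what the fit can detect at their size. The 10 genes, the gene lists, the tests and the alternatives were chosen with earlier results of these data known. The text names all 10 genes, all measured relatives in the family lists, and from both pathway lists the 4 genes of smallest p in each direction and a fixed set (Hif1a, Epas1, Arnt, Vhl, Hif1an, Egln2, Bnip3, Pdk1, Ldha, Pgk1, Adm, Ddit4, Car9, Hk2, Mxi1). Cell marker lists are given by their means with their 3 brightest members. Some members of the lists had no probe set of their own and were not analysed here. Promoter sequences are from RefSeq.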

Additional observations from a re-analysis of the deposited data

How the results depend on the processing

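The HIF target genes gave 0 calls in either direction under each of the 14 alternatives, with 7 of the 9 tested under the filter on dim genes, 6 among the genes with 5 distinct values and all 9 under the others. Of 121 differences of single genes, 38 were identical to the reported ones, since the setting changes only the test, the genes tested or a second probe set. Of the other 83, 74 kept their direction and 9 reversed. Polg mutant replicate 3 has no WT array of the same number. The replicate block therefore gave the same differences as the fit without that array, and is not a separate check of them. Egln1 reversed to -0.046 without WT replicate 2, -0.047 without Polg mutant replicate 1, -0.0049 after centring on array medians and -0.026 with the neutrophil mean as a term. Egln3 reversed to 0.18 without WT replicate 1, and to 0.074 both without Polg mutant replicate 3 and with the replicate number as a block. Pfkfb4 reversed to -0.020 without WT replicate 1, and P4ha1 to -0.016 with the neutrophil mean as a term. Over all fits without 1 array Egln1 ran from -0.047 to 0.047, Egln3 from -0.21 to 0.18 and Pfkfb4 from -0.020 to 0.088. The cause was not tested. Leaving out 1 array at a time gave medians of the 9 genes from 0.080 to 0.19, and 2 to 5 genes with every Polg mutant array above the WT arrays, against 10.4% to 23.0% of all genes in these fits, and 0 to 1 below, against 11.7% to 28.1%. Quantile normalization run again gave 5 above, against 20.5% of all genes. The median was 0.20 over the 6 genes with 5 distinct values.

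Calls over all genes moved from 0. Leaving out 1 array gave 0 to 713 higher and 0 to 1068 lower genes, the upper ends without WT replicate 1, and 511 and 413 without WT replicate 2, fits in which the variance comes from the Polg mutant arrays alone. Quantile normalization run again gave 8 higher and 1 lower, the filter on dim genes 6 and 5, the genes with 5 distinct values 73 and 41, and a fit without variance moderation 4 and 1. Across genes, deviations from the group means of arrays with the same replicate number had r = 0.19 for number 1 and -0.20 for number 2. With only 2 WT arrays, their deviations mirror each other. The r values are therefore not independent and cannot decide whether arrays were paired. The numbers were not taken as pairs. The replicate block, with 1 residual degree of freedom, gave 0 calls and a median of 0.19 for the 9 genes. By construction this median is that of the fit without Polg mutant replicate 3. Levels below a log2 of 6 may lie at background, where differences would be understated.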
